A study of Mus musculus with 12 samples.

Results

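The transcripts described here encode 7 transcription factors that set and hold hepatocyte identity: Foxa1, Foxa2, Foxa3, Cebpa, Onecut1, Onecut2 and Prox1. They were taken by name from the array's annotation, keeping probe sets assigned to a single gene symbol, and all 7 were present with 1 probe set each, among 22180 named genes and 35145 probe sets. The first group, hApoF, consisted of 6 liver samples from mice given an Ad5 adenovirus carrying human apolipoprotein F, a secreted protein that rides on lipoproteins. The other, GFP, consisted of 6 from mice given an Ad5 virus carrying green fluorescent protein, so animals of both groups carried a viral vector. Livers without virus were not analysed here. All animals were C57BL6/J males aged 8 to 10 weeks, injected through the tail vein and killed 4 days later after a 6 h fast. Adenovirus given by this route enters mainly hepatocytes, and the gene it carries is expressed without joining the host genome. Whether every sample is a separate animal is not stated in the labels, and the p-values speak of how far these 12 samples scatter, and some of that scatter may be technical.

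Hepatocytes are built by a small network of factors that bind each other's genes and many liver genes in common. FoxA proteins are winged-helix pioneer factors that open closed chromatin for other factors. C/EBP alpha, the product of Cebpa, is a basic leucine zipper activator of metabolic genes that also restrains cell division, and the Onecut proteins carry a cut domain beside a homeodomain. Prox1 is a homeodomain protein that acts in liver largely as a corepressor. In mice the same factors are used outside hepatocytes as well: FoxA and Onecut proteins in bile duct cells, and Prox1 in lymphatic endothelium.

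The array measured log2 RMA values, in which a difference of 1 is a doubling, and the medians of the arrays ranged from 4.927 to 5.035. The mean of every lineage factor lay above those medians in both groups. The table holds no detection call, and no order of level between genes is read from the brightness of their probe sets. Hepatocyte markers bore out the tissue label, with Alb (albumin) at 13.50 ± 0.03 in hApoF livers and 13.44 ± 0.03 in GFP livers (SD, n = 6 each). In bulk liver, fewer cells of a type and less RNA per cell cannot be told apart.

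Some start regions of these genes are shown first because the factors are known to act on one another's promoters, and because the pairs Foxa2 and Prox1, and Foxa1 and Onecut1, are compared array by array further on. The windows are the 250 bases before an annotated start, from RefSeq on GRCm38.p6, and 9 windows from 6 of the 7 genes were examined. No window of Onecut2 was examined, so the counts of matches among the lineage factors leave it out. Matches were sought on both strands. The FoxA core searched was TGTTTAC. The Onecut core was ATTGAT. The C/EBP core, a palindrome, was TTGCGCAA. No match overlaps another here. Capitals mark matches. Each sequence is written 5′ to 3′ on the strand of its gene.
Foxa2, outermost start, chr2:148046970-148047219, minus strand: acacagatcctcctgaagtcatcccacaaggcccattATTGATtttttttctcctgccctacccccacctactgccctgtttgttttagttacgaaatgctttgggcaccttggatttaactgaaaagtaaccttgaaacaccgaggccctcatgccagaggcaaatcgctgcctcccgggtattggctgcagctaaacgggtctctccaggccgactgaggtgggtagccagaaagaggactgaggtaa
Prox1, outermost start, chr1:190170828-190171077, minus strand: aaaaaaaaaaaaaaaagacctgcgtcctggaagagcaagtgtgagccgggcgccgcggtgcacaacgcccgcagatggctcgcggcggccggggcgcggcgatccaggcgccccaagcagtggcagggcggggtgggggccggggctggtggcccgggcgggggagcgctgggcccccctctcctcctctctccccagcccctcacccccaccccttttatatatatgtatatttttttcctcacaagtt
Onecut1, chr9:74861671-74861920, plus strand: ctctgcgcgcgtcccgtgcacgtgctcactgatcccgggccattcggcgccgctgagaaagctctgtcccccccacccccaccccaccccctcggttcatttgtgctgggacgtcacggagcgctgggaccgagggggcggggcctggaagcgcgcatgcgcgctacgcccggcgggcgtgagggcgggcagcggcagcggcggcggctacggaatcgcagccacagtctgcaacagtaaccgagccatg
Foxa1, 27 bases around the match, chr12:57546236-57546262, minus strand: atactgctttGTAAACAaagtgagggc
The Onecut core occurred in 1 of the 9 windows, that of the outermost Foxa2 start, where it begins at position -213. Across all 32851 such mouse windows, 6.72% held it. The FoxA core occurred in 1 window, that of Foxa1, where it lies on the opposite strand (capitals GTAAACA) from position -141, and in 3.17% of all windows. The C/EBP core was found in 0 of the 9 windows and in 0.164% of all windows. A match describes the letters and is not a measured binding site.

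Set against GFP livers, hApoF livers had a higher level of Onecut2, and no other member of the set passed the test. The count was 1 of 7 higher, 0 lower and 6 not past the threshold (limma over all genes with Benjamini-Hochberg adjustment, threshold 0.05). Over all 22180 genes, 6.91% were called in either direction, 2.11% higher and 4.80% lower. Against that background, 1 call among 7 genes says nothing about the set as a whole. The differences were above 0 for 4 factors and below 0 for 3, with a median log2 difference of 0.07 against 0.03 for all genes. At an unadjusted limma p under 0.05 the count was likewise 1.

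**Figure D1:**
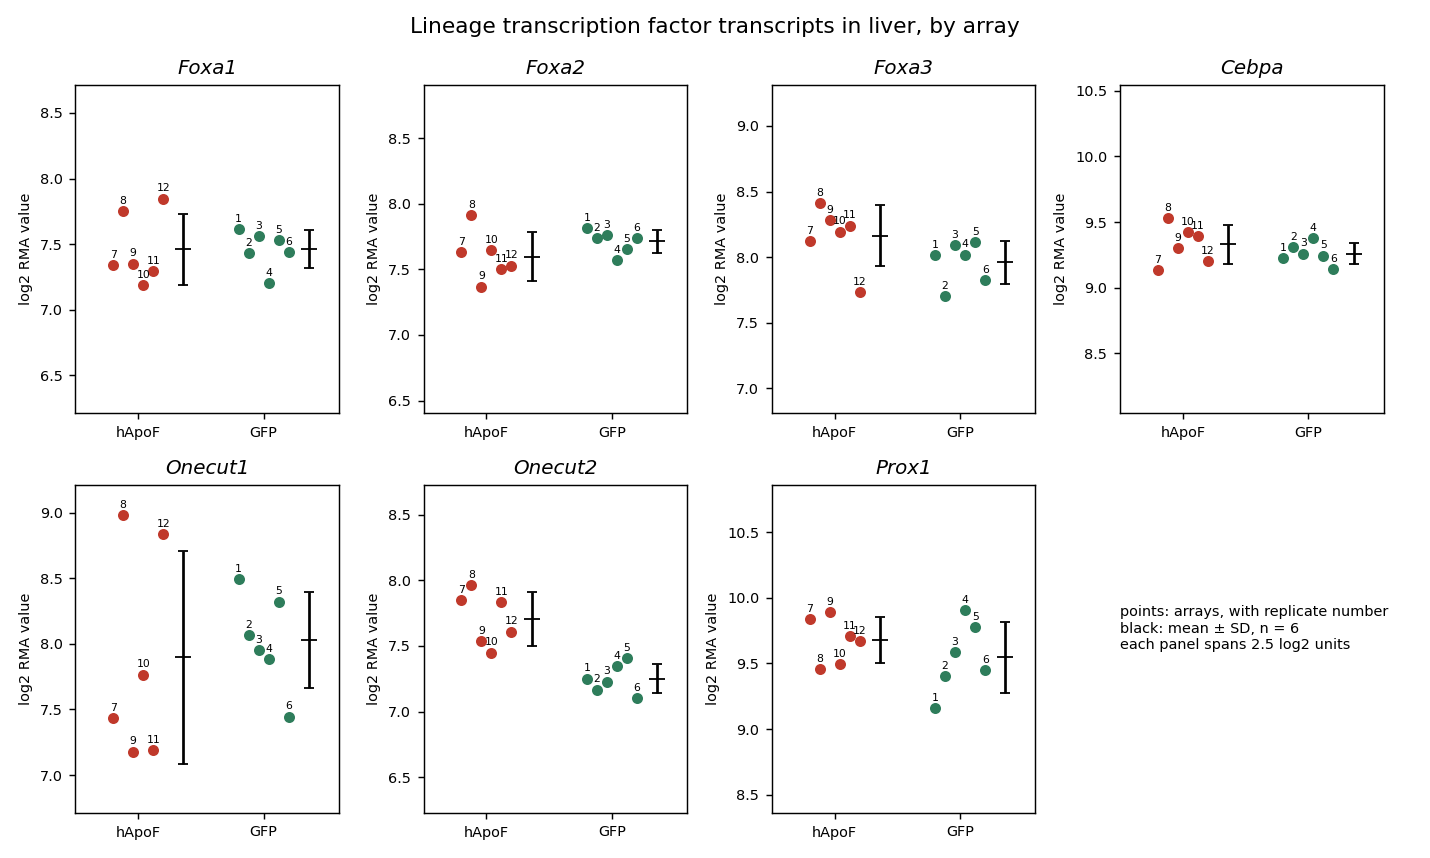
log2 RMA value (vertical axis, panels of equal height in log2 units) of each lineage factor in 6 hApoF arrays (red) and 6 GFP arrays (green), with replicate numbers at the points and mean ± SD in black. The Onecut2 groups do not overlap, and Onecut1 is spread widely in both groups.

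Onecut2 encodes a paralog of Onecut1 that shares tasks with it in the developing mouse liver, where both act in hepatoblasts and bile duct formation. Its values ran from 7.45 through a median of 7.72 to 7.96 in hApoF livers, against 7.10, 7.24 and 7.41 in GFP livers. All 6 hApoF arrays lay above the highest GFP array, GFP 5, although hApoF 10, the lowest of its group, cleared it by a small margin. Means were 7.71 ± 0.20 in hApoF livers and 7.25 ± 0.11 in GFP livers (SD, n = 6 each). The log2 difference was 0.46 (SE 0.09, 95% confidence interval 0.26 to 0.66, limma adjusted p = 0.0075), a 1.37-fold rise. Adjusted over all 35145 probe sets, of which 4.34% were called, the p was 0.013 (limma). The exact two-sided permutation p was 0.0022, the smallest that 924 assignments of 6 arrays can give. Groups failed to overlap in 4.98% of all genes, and among the lineage factors Onecut2 alone showed this. With any single array left out, the log2 difference stayed between 0.40 and 0.51 and the limma adjusted p between 0.0040 and 0.022.

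Since Onecut factors also act in bile duct cells, bile duct markers stand beside the rise of Onecut2. Of 7 measured, 0 passed (limma; 3 had an unadjusted p under 0.05), with a median log2 difference of 0.18. Epcam, an adhesion protein of bile duct cells, was 0.29 higher (limma adjusted p = 0.065), and Sox9, a transcription factor of the ducts, 0.31 lower (log2 difference -0.31, limma adjusted p = 0.068). The log2 of the summed level of the list was 7.69 to 8.02 in hApoF livers and 7.78 to 7.99 in GFP livers, the first range holding the whole of the second. Of the 7 markers, 3 averaged below the array medians, Epcam among them (mean 4.71 in hApoF and 4.42 in GFP livers). Their part in the Onecut2 result was not tested.

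Onecut1, long known as HNF-6, controls glucose and lipid genes in adult liver and, in rodents, responds to growth hormone. It was the most uneven of the lineage factors. Its values ran from 7.18 through a median of 7.60 to 8.98 in hApoF livers, against 7.45, 8.01 and 8.50 in GFP livers. Within the hApoF group, hApoF 8 and hApoF 12 were high and hApoF 9 and hApoF 11 low, and 2 hApoF arrays exceeded every GFP array while 3 fell below every one. The log2 difference of the means was -0.13 (SE 0.30, 95% interval -0.77 to 0.51, limma adjusted p = 0.845), an interval wide enough to hold a change as large as that of Onecut2 in either direction. It turned to 0.01 without hApoF 9 or without hApoF 11, and was -0.35 without hApoF 8.

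The SD of Onecut1 within groups, pooled over both, was 0.63, and 34 of 11090 genes brighter than the median gene had a larger one, so that 99.7% of them had a smaller one. For the other factors this SD was 0.12 (Cebpa), 0.14 (Foxa2), 0.16 (Onecut2), 0.20 (Foxa3), 0.22 (Foxa1) and 0.23 (Prox1), where the median of the brighter genes was 0.14. The SD of Onecut1 was 0.81 among hApoF livers and 0.37 among GFP livers, and the difference in SD between groups was not tested. Whether Onecut2 and Onecut1 moved differently was asked within each array. The value Onecut2 minus Onecut1, which has no meaning as a level between probe sets, was on average 0.59 higher in hApoF livers than in GFP livers on the log2 scale, with an SD of 0.79 among hApoF livers and 0.32 among GFP livers (n = 6 each). That difference did not pass (exact two-sided permutation p = 0.128). A different response of the paralogs was therefore not shown. Onecut3, the remaining paralog, was 0.15 higher (limma adjusted p = 0.374).

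**Figure D2:**
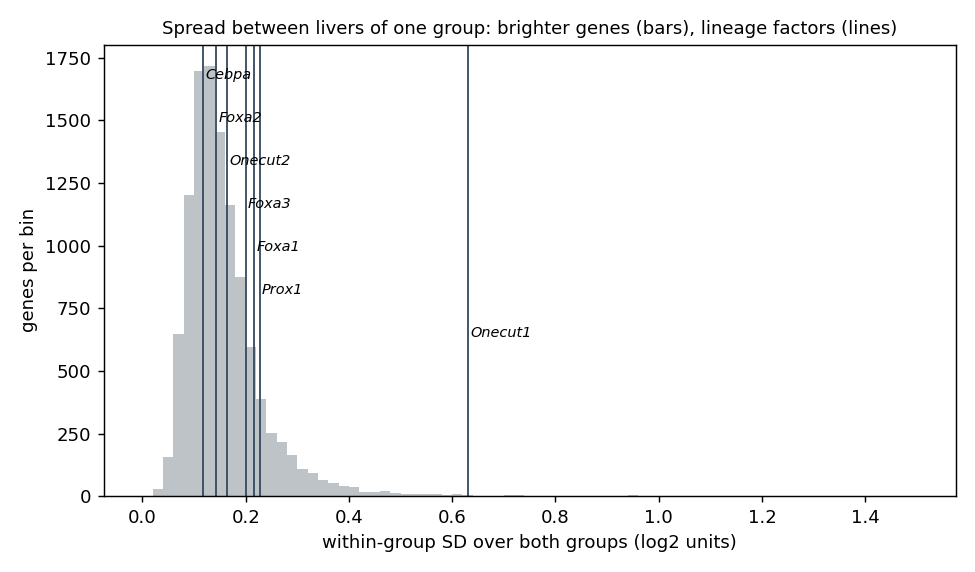
Number of brighter genes (bars, 11090 genes, 1 of which lies beyond the axis) by their within-group SD in log2 units (horizontal axis), with a line at the SD of each lineage factor. Onecut1 at 0.63 lies in the far right tail and the other 6 between 0.12 and 0.23.

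Of the FoxA genes, Foxa3, whose product sustains glucose handling in fasted mice, came nearest to a change. It had 7.73, 8.22 and 8.41 (lowest, median, highest) in hApoF livers, against 7.70, 8.02 and 8.11 in GFP livers. In 5 of the 6 hApoF arrays it lay above every GFP array, and hApoF 12 lay near the bottom of the GFP range. The log2 difference was 0.20 (SE 0.11, 95% interval -0.03 to 0.43, limma adjusted p = 0.300), and it was 0.29 without hApoF 12 (limma adjusted p = 0.065).

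Foxa2, which in mice governs lipid use during fasting and bile acid handling, had 7.37, 7.58 and 7.91 in hApoF livers, against 7.57, 7.74 and 7.81 in GFP livers. The groups overlapped, with 3 hApoF arrays below and hApoF 8 above the whole GFP range. Its log2 difference was -0.11 (SE 0.09, 95% interval -0.30 to 0.07, limma adjusted p = 0.481).

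Foxa1, a partner of steroid hormone receptors, had 7.19, 7.34 and 7.85 in hApoF livers, against 7.21, 7.49 and 7.61 in GFP livers. Here hApoF 8 and hApoF 12 stood above all GFP arrays. The log2 difference of -0.003 (SE 0.11, 95% interval -0.25 to 0.24, limma adjusted p = 0.991) changed sign under several of the alternatives.

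Cebpa, whose loss in newborn mice abolishes hepatic glycogen storage and gluconeogenesis, had 9.13, 9.35 and 9.53 in hApoF livers, against 9.15, 9.25 and 9.38 in GFP livers. It had the tightest values of the set, and the groups overlapped. Its log2 difference was 0.07 (SE 0.08, 95% interval -0.09 to 0.23, limma adjusted p = 0.644), an interval that leaves out a change of 0.46, the size measured for Onecut2. The intervals of Foxa1, Foxa2, Foxa3 and Prox1 leave out that change too, and that of Onecut1 does not.

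Prox1, which drives hepatoblast migration in mouse embryos and later represses bile acid synthesis, had 9.46, 9.69 and 9.89 in hApoF livers, against 9.16, 9.52 and 9.91 in GFP livers. The hApoF values lay wholly inside the GFP range, in which GFP 1 was lowest and GFP 4 highest. Its log2 difference was 0.13 (SE 0.12, 95% interval -0.12 to 0.38, limma adjusted p = 0.576). Beside it stand the endothelial markers, since lymphatic endothelium also makes Prox1. All 10 measured markers had differences above 0, with a median log2 difference of 0.28, and 7 had an unadjusted limma p under 0.05. After adjustment the test called 2 of 10 higher and 0 lower, leaving 8 uncalled (without GFP 4, 7 were called higher). The risers were Kdr (0.44, limma adjusted p = 0.0089) and Tek (0.41, limma adjusted p = 0.014), receptors of vascular and sinusoidal cells. Flt4 (0.22), Pdpn (0.26) and Lyve1 (0.30), also on the list, did not pass (limma adjusted p = 0.113, 0.056 and 0.471). The list holds lymphatic and sinusoidal markers together, and lymphatic cells were not assessed apart from sinusoidal ones. The log2 summed level of the list was 11.55 to 11.88 in hApoF livers and 11.19 to 11.69 in GFP livers, and none of its genes averaged below the array medians. Their part in the Prox1 values was not tested.

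**Figure D3:**
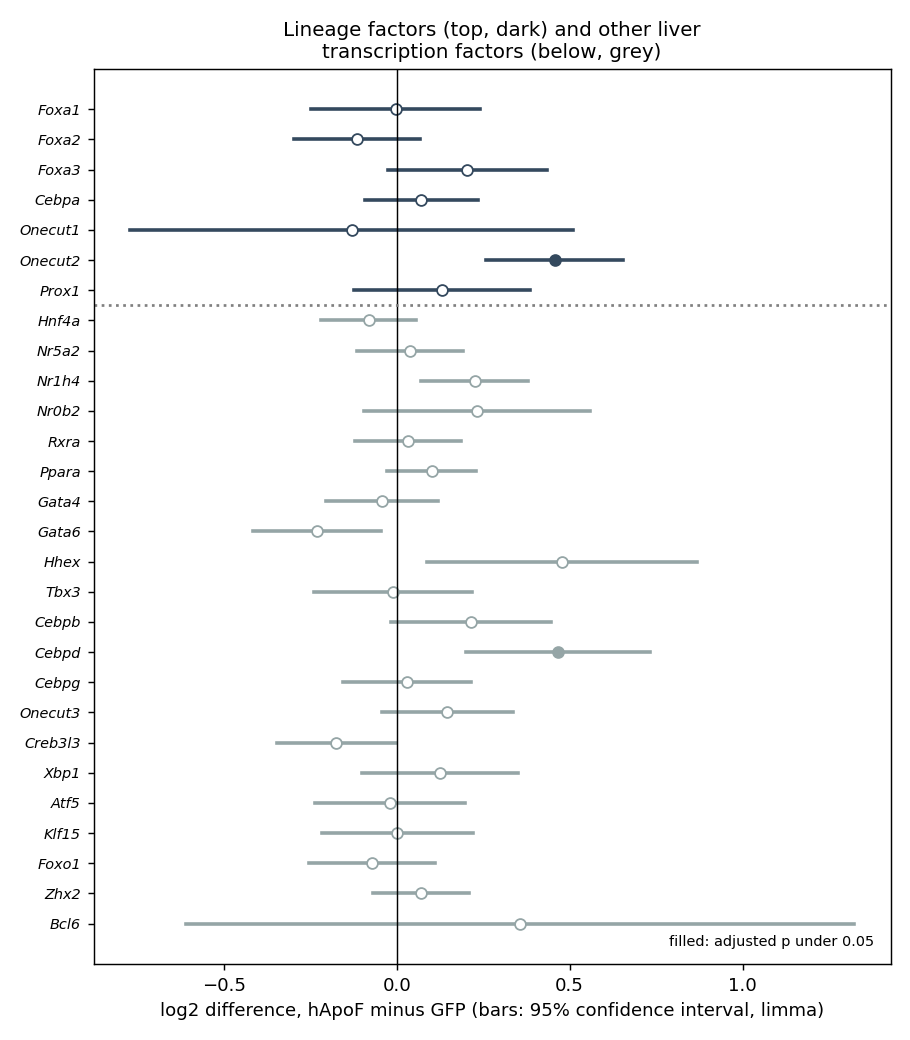
log2 difference, hApoF minus GFP, with its 95% confidence interval (limma) for the 7 lineage factors (dark, above the dotted line) and 21 other liver transcription factors (grey), filled where the adjusted p was under 0.05. Onecut2 (0.46) and Cebpd (0.47) are filled, and Onecut1 and Bcl6 have the widest intervals.

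The lineage factors were also compared with each other from array to array, after subtracting each group's mean, in 21 pairs over 12 arrays. Foxa2 and Prox1 varied in opposite directions. Arrays low in Prox1, such as GFP 1 and hApoF 8, were high in Foxa2, and those high in Prox1, such as GFP 4 and hApoF 9, were low in Foxa2. Pearson's r was -0.70 (permutation p = 0.0013, 0.028 after Benjamini-Hochberg adjustment over the 21 pairs) and Spearman's rho -0.74 (permutation p = 0.0076, adjusted 0.160), so the pair passed by the first measure and not by the second. Without the 2 arrays farthest from the Prox1 median, GFP 1 and GFP 4, r was -0.69. Within hApoF arrays r was -0.77 (exact permutation p = 0.069, n = 6) and within GFP arrays -0.93 (exact permutation p = 0.0097, n = 6). RMA values of 1 array share its normalization.

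Onecut1 and Foxa1 varied in the same direction, with r = 0.81 (permutation p = 0.019, adjusted 0.201) and rho = 0.73 (permutation p = 0.024, adjusted 0.249). This pair did not pass after adjustment. Without hApoF 8 and hApoF 12, the arrays farthest from the Onecut1 median, r was 0.24, so the relation rests on those arrays. Within hApoF arrays r was 0.88 (exact permutation p = 0.064, n = 6) and within GFP arrays 0.49 (exact permutation p = 0.322, n = 6). By the adjusted Pearson test 1 of the 21 pairs passed, and by the adjusted Spearman test 0 did.

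**Figure D4:**
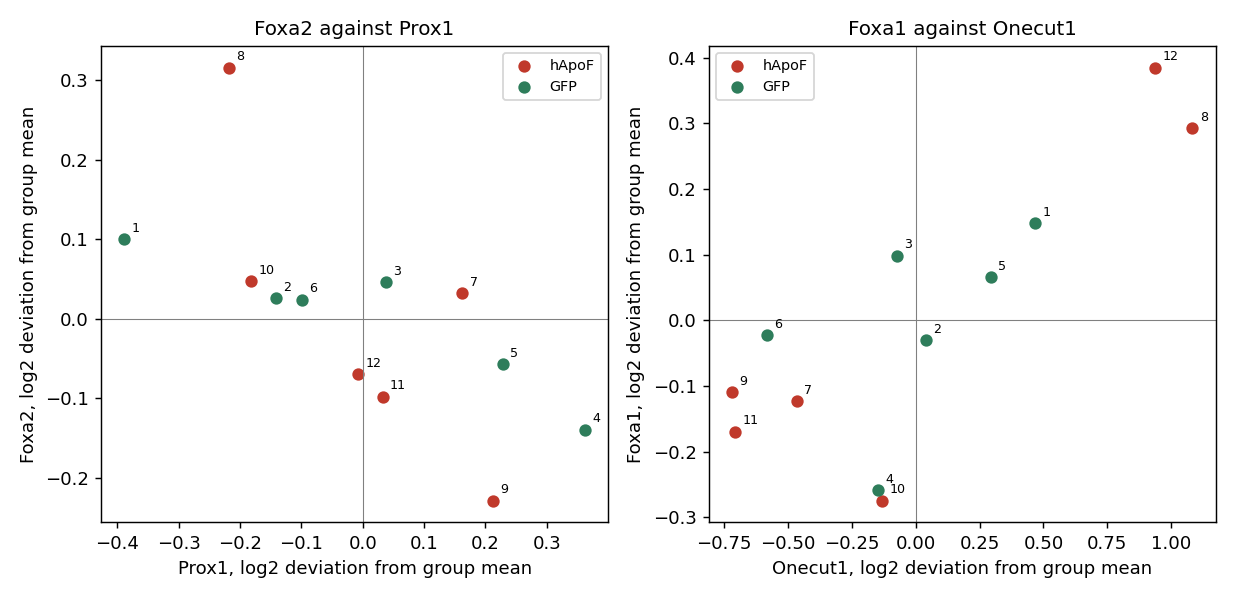
Deviation of each array from its group mean in log2 units, Foxa2 against Prox1 (left) and Foxa1 against Onecut1 (right), for 6 hApoF (red) and 6 GFP (green) arrays with replicate numbers. Foxa2 falls as Prox1 rises in both groups, and hApoF 8 and hApoF 12 form the upper right of the Onecut1 plot.

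The genes whose array-to-array pattern was most like that of each factor were read from the same deviations over 12 arrays, among 10350 brighter genes, as a description. Nearest to Onecut1 were Mob3b (Pearson r = 0.89), Cish, an inhibitor of cytokine and growth hormone receptor signalling (0.89), and Gcnt4 (0.88). Nearest to Onecut2 were Srpr, a subunit of the signal recognition particle receptor (0.90), Pgs1 (0.88) and Map1s (0.87). Prox1 was followed most closely by St3gal4, a sialyltransferase (0.95), Defb35 (0.90) and Sik1, a kinase that restrains CREB coactivators (0.88). For Foxa1 these were Cnot4 (0.91), Ankrd11 (0.90) and Rcor3 (0.90), for Foxa2 Cetn2, Ube2f and Tmem234 (0.87, 0.87 and 0.86), for Foxa3 Cbs, an enzyme of homocysteine removal (0.94), Tuft1 (0.92) and Ubqln1 (0.91), and for Cebpa Polr2e (0.93), Car3 (0.88) and Tpcn1 (0.87). The highest of 10350 values is large by selection. Every r was positive within both groups, though some differed between them. Tmem234 had 0.97 within hApoF arrays and 0.35 within GFP arrays, Car3 0.97 and 0.47, and Pgs1 0.98 and 0.50 (n = 6 each).

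The other transcription factors of the liver network were also mostly uncalled. The test called 1 of 21 higher and 0 lower, leaving 20 uncalled (limma; 5 had an unadjusted p under 0.05), with a median log2 difference of 0.04. The riser was Cebpd, a C/EBP family member induced in acute inflammation, at 5.18, 5.46 and 5.80 in hApoF livers, against 4.67, 5.01 and 5.29 in GFP livers. The groups overlapped. Cebpd was dim, its GFP mean of 4.99 lying within the range of the array medians, and the brightness filter left it out. The log2 difference of Cebpd was 0.47 (SE 0.12, limma adjusted p = 0.035), and the call was lost in 7 of 12 omissions of 1 array (limma adjusted p up to 0.083). These were the omissions of GFP 1, GFP 3, GFP 6, hApoF 7, hApoF 8, hApoF 9 and hApoF 10. Cebpb, its relative, was 0.22 higher (limma adjusted p = 0.274). Hnf4a, the nuclear receptor at the centre of the network, had 10.61, 10.77 and 10.83 in hApoF livers, against 10.73, 10.82 and 10.88 in GFP livers, a log2 difference of -0.08 (95% interval -0.22 to 0.06, limma adjusted p = 0.514). Nr1h4, the bile acid receptor FXR, was 0.23 higher (limma adjusted p = 0.077) and Nr5a2, which with Prox1 controls bile acid synthesis, 0.04 higher (limma adjusted p = 0.810). Hhex, needed for liver bud growth, was 0.48 higher (limma adjusted p = 0.142), while Gata6, an endoderm factor, had a log2 difference of -0.23 (limma adjusted p = 0.131).

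Among 12 measured partners and regulators of the lineage factors, 1 fell, 0 rose and 11 did not pass. The faller was Hdac3, a histone deacetylase that Prox1 recruits in mouse liver to restrain lipid genes. It had 8.65, 8.83 and 8.95 in hApoF livers, against 9.04, 9.15 and 9.22 in GFP livers, with no overlap. The log2 difference was -0.33 (SE 0.07, limma adjusted p = 0.014), and the call held in every omission of 1 array (limma adjusted p up to 0.039). Trib1, the adaptor that directs C/EBP alpha to degradation, was 0.42 higher (SE 0.13, limma adjusted p = 0.056), and its adjusted p lay between 0.013 and 0.125 over the omissions.

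C/EBP alpha is known to restrain cell division through proteins that include p21, the kinases CDK2 and CDK4 and the retinoblastoma family. The test called 4 of 7 such genes lower and 0 higher, leaving 3 uncalled, with a median log2 difference of -0.41. Cebpa itself did not pass. These genes were listed by their link to C/EBP alpha, so their count and median do not say whether division was restrained more or less. Cdkn1a, which encodes p21, fell by 2.29 (SE 0.18), Rbl1, a retinoblastoma relative, by 1.10 (SE 0.11), Cdk2 by 0.81 (SE 0.10) and Cdk4 by 0.41 (SE 0.08), with limma adjusted p of at most 0.0038. Rb1 (-0.30, limma adjusted p = 0.062), E2f4 (-0.31, limma adjusted p = 0.064) and Smarca2 (0.105, limma adjusted p = 0.495) did not pass. The Rb1 value depended on the probe set and on 1 array: its log2 difference was -0.043 with the mean of its probe sets (limma adjusted p = 0.836) and -0.38 without hApoF 12 (limma adjusted p = 0.0027). Rb1 and E2f4 were both called lower, making 6 of 7, when dim genes were left out or with trend and robust settings. Markers of dividing cells stood beside these falls. Of 9 measured, 9 fell and 0 rose, among them Plk1 (4.01-fold), Cdk1 (3.47-fold), Rrm2 (3.39-fold) and Top2a (3.29-fold) (limma), and 1 of the 9 averaged below the array medians. Their log2 summed level was 9.52 to 10.25 in hApoF livers and 10.70 to 11.33 in GFP livers, and their part in the falls was not tested.

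Genes known as targets of the lineage factors were mostly not called. Of 13 FoxA targets 2 rose, 0 fell and 11 did not pass (limma; 5 had an unadjusted p under 0.05), with a median log2 difference of 0.06. Pck1, the gluconeogenic enzyme listed as a target of FoxA, C/EBP and Onecut factors, had 12.42, 12.50 and 12.57 in hApoF livers, against 11.91, 11.97 and 12.26 in GFP livers, a rise of 0.44 with no overlap (SE 0.08, limma adjusted p = 0.0020). Igfbp1, an insulin-repressed binding protein, rose by 1.19 (SE 0.29, limma adjusted p = 0.023). It missed the threshold when GFP 1, GFP 2, GFP 6, hApoF 9 or hApoF 12 was omitted (limma adjusted p up to 0.057), and with trend and robust settings (limma adjusted p = 0.061). Of 9 Cebpa targets 1 rose, 0 fell and 8 did not pass, and of 7 Onecut1 and Prox1 targets 1 rose, 0 fell and 6 did not pass, the riser being Pck1 in both lists. Cyp7a1, the first enzyme of bile acid synthesis and repressed by Prox1, had 10.31, 10.74 and 11.59 in hApoF livers, against 9.90, 10.07 and 10.77 in GFP livers, which is 0.62 higher on the log2 scale (SE 0.20, limma adjusted p = 0.080). Tat, tyrosine aminotransferase and a target in all of these lists, was 0.27 higher (limma adjusted p = 0.057), and Ttr, transthyretin, 0.03 higher (limma adjusted p = 0.790).

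Of 11 measured hepatocyte markers 0 passed in either direction (limma; 4 had an unadjusted p under 0.05, all higher), with a median log2 difference of 0.11, and 3 were called higher with trend and robust settings. All 11 differences were above 0, as were those of 12788 of all 22180 genes. The groups did not overlap for 4 of the 11, against 4.98% of all genes. The lowest p were those of the fibrinogen genes Fgb (0.19, limma adjusted p = 0.080) and Fga (0.20, limma adjusted p = 0.104). The log2 summed level of the markers was 16.17 to 16.25 in hApoF livers and 16.07 to 16.12 in GFP livers, which do not overlap. Of 10 macrophage and Kupffer cell markers 2 rose, Clec4f (1.26, limma adjusted p = 0.010) and Vsig4 (1.38, limma adjusted p = 0.0375), the second of which lost its call in 7 of 12 omissions. In that list 9 differences were above 0 and 1 below, with a median log2 difference of 0.16, and 8 markers were uncalled. Of 10 stellate cell markers 2 rose, Rgs5 (0.54, limma adjusted p = 0.0034) and Pdgfrb (0.28, limma adjusted p = 0.0385), the second of which kept its call in 3 of 12 omissions. Stellate differences were above 0 for 7 markers and below 0 for 3, with a median of 0.21, and 8 were uncalled. Log2 summed levels were 11.01 to 11.64 in hApoF livers and 10.67 to 11.57 in GFP livers for the macrophage list, and 10.76 to 11.08 in hApoF livers and 10.43 to 10.78 in GFP livers for the stellate list. The part of these cells in the lineage factor values was not tested.

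**Figure D5:**
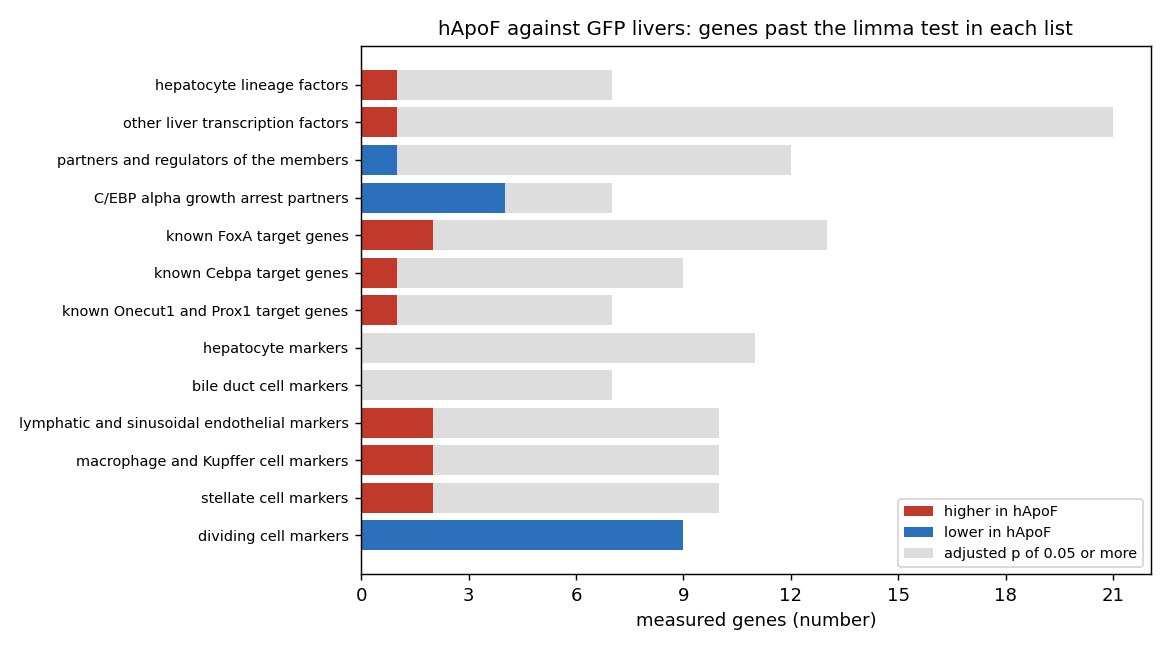
Number of measured genes of each list (horizontal axis) that were higher in hApoF livers (red), lower in hApoF livers (blue) or not past the limma adjusted threshold of 0.05 (grey). The lineage factors have 1 red gene of 7, and blue predominates in the growth arrest partners (4 of 7) and the dividing cell markers (9 of 9).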

How the data were processed

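Liver RNA of 12 samples, 6 hApoF and 6 GFP by their titles, was measured on a mouse gene array, 1 array per sample. The authors deposited log2 probe set values, and oligo and RMA are named in the submitters' processing notes (background correction, quantile normalization and median-polish summary). The sources used here do not give versions, parameters or genome build. The deposited table, with 35145 probe sets and 0 missing values, was used unchanged. The platform annotation gave 23521 probe sets 1 symbol, 1814 several and 9810 none. The brightest probe set stood for each of 22180 genes, with no filter.

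hApoF minus GFP was fitted with limma 3.58.1 (R 4.3.3, lmFit and eBayes, no covariates) and adjusted over all genes by Benjamini-Hochberg at 0.05. The fit was tested on simulated data, where it recovered 66% of 50 changes of log2 size 0.5 and 98% of 50 of size 1. It made 13 false calls there, and 0 calls where no change was put in. The simulated noise was normal and drawn independently for each gene, and few genes were changed. These rates may therefore not hold for the deposited values. Exact permutation tests used all 924 assignments, and correlations 100000 resamples within groups. Python 3.11.15, scipy 1.17.1 and matplotlib 3.10.9 were used.

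The members and the 12 other lists (142 entries, 126 measured) were chosen with earlier results of these data known. Unmeasured entries were not analysed here. Named are all members and, from each list, called genes by lowest p (up to 8 in the lists of factors, partners and growth arrest genes, up to 4 elsewhere), or at most 2 where none passed. Other genes named, and the 3 motifs, were chosen after their values or sequences were seen. Alternatives were centring, repeated quantile normalization, a brightness filter, trend and robust settings, the mean of probe sets, and omissions of arrays. The number of arrays limits the precision.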

Additional observations from a re-analysis of the deposited data

Results flagged for a closer look

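An array was flagged where its gap to the nearest array, divided by the group's range, exceeded Dixon's 95% critical value for 6 samples. In 94 groups of 6 arrays, 5 held a flagged array, and chance alone flags about 1 in 20 groups. Of the lineage factors 0 were among them. Cdkn1a was 10.01 in GFP 3, and the next GFP array had 9.41. Pdgfrb was 6.65 in hApoF 10, where the next hApoF array had 6.83. Gata6 reached 7.34 in hApoF 7, with the next at 7.13. Ttr was 13.05 in hApoF 7, with the next at 13.12. Rb1 reached 8.39 in hApoF 12, with the next at 7.92.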

How the results depend on the processing

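No paired analysis was possible because the groups share no replicate number. Onecut2 kept its call and direction in all 18 alternative fits (log2 difference 0.40 to 0.51, limma adjusted p 0.0025 to 0.022), and Foxa2, Foxa3, Cebpa and Prox1 kept their direction and stayed uncalled in all 18. Foxa1 was 0.057 after repeated quantile normalization and -0.080 to 0.052 in omissions of 1 array, and Onecut1 -0.35 to 0.013. Over 40 other named genes and 718 recomputed values, 648 kept direction and call, 31 lost a call, 37 gained one and 2 turned sign: Ttr to -0.0100 with repeated quantile normalization, and Nr5a2 to -0.0029 without GFP 4 and hApoF 12.

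Counts of called genes moved as follows in omissions of 1 array. Among all genes 254 to 653 were higher. Other liver transcription factors had 0 to 1 higher and 0 to 1 lower, partners 0 to 1 higher and 1 to 2 lower, FoxA targets 1 to 3 higher and 0 to 1 lower, and growth arrest partners 4 to 5 lower. Cebpa targets had 1 to 2 higher, as did Onecut1 and Prox1 targets. Bile duct markers had 0 to 1 higher and 0 to 1 lower, endothelial markers 2 to 7 higher, and macrophage and stellate markers 1 to 3 higher each. With genes brighter than the median gene only, higher counts were 3 for Cebpa targets, 3 for Onecut1 and Prox1 targets, 3 for hepatocyte markers, 5 for endothelial markers, 4 for stellate markers and 1 for partners, and lower counts were 6 for growth arrest partners, 2 for partners, 1 for FoxA targets and 1 for bile duct markers. With trend and robust settings, higher counts were 2 for other transcription factors, 1 for partners, 3 for Cebpa targets, 2 for Onecut1 and Prox1 targets, 3 for hepatocyte markers, 4 for endothelial markers and 1 for macrophage markers, and lower counts matched those of the brightness filter. With arrays centred, lower counts were 2 for partners, 1 for FoxA targets and 1 for bile duct markers, and the higher count was 1 for stellate markers. Repeated quantile normalization gave partners 1 higher and FoxA targets 1 lower. Without GFP 4 and hApoF 12, endothelial markers had 4 higher. The cause of these shifts was not tested.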
